A study of Mus musculus with 32 samples.

Results

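The genes described here are 9 genes of MHC class I antigen presentation, B2m, H2-D1, H2-K1, H2-T23, Tap1, Tap2, Tapbp, Psmb8 and Psmb9, taken by symbol from allele-resolved RNA sequencing tables of mouse brain that list 18501 gene symbols in all. Of the 9, 7 were listed among 14395 symbols in the adult preoptic area (POA), 8 among 14122 in the adult medial prefrontal cortex (mPFC) and 8 among 17932 in whole brain at embryonic day 15 (E15). H2-T23 was listed in E15 brain alone, Tap1 was not listed in POA, and Psmb9 was not listed in E15 brain.

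MHC class I molecules show peptides made inside a cell to cytotoxic T cells and natural killer cells. A class I heavy chain, encoded by H2-K1, H2-D1 or the nonclassical H2-T23, pairs with the invariant light chain encoded by B2m. Peptides are cut by the proteasome, whose interferon-inducible catalytic subunits are encoded by Psmb8 and Psmb9, and are pumped into the endoplasmic reticulum by the transporter made of Tap1 and Tap2. Tapbp encodes tapasin, which holds the empty class I molecule at that transporter. In brain, class I genes are known both for their low level compared with lymphoid tissue and for roles in synapse remodelling.

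The animals compared were F1 hybrids of 2 inbred strains, CastEiJ (CAST), of the castaneus subspecies of house mouse, and C57BL/6J (B6), whose genome is the reference. The initial cross (F1i) had a CastEiJ mother and a C57BL/6J father, and the reciprocal cross (F1r) a C57BL/6J mother and a CastEiJ father. Adult tissue came from POA, a hypothalamic region, and from mPFC at 5 weeks of age, with a male and a female pool of 8 to 10 mice for each cross and region. Embryonic tissue was whole brain, with 1 pool of 4 to 5 embryos per cross, and parental CastEiJ and C57BL/6J embryonic brains were sequenced as well. No group carried a mutation or received a treatment, so the groups differ by strain of the chromosome, by the parent that gave it, by sex, by region and by age.

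The unit of measurement was the informative read, which spans a strain-specific base and was thereby assigned to the CAST or the B6 chromosome. The CAST share is the percentage of a gene's informative reads that carried the CAST base. A read over several informative bases was counted at each of them, so sums over near bases can exceed the number of reads. The maternal share equals the CAST share in F1i and the B6 share in F1r. Informative reads numbered 3602903 to 7701271 per POA pool, 4962510 to 7468616 per mPFC pool, and 11453795 and 11907363 in the F1i and F1r E15 pools. Technical replicates were summed by the authors, so the pool is the replicate, and whether the mice of the POA pools also gave mPFC is not stated in the labels. P-values over adult pools therefore measure the spread between pools of mice, and p-values within E15 brain cover counting error alone.

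Marker genes followed the labelled tissues. Slc17a7 and Tbr1, cortical excitatory neuron genes, summed to 6.67 to 11.0 RPM (informative reads per 1000000 of the pool) in POA pools, against 640.0 to 817 in mPFC pools. Esr1, an oestrogen receptor of preoptic neurons, had 2.64 to 4.20 RPM in POA and 0.190 to 0.921 in mPFC. Nes, Dcx and Sox11 of progenitors and young neurons summed to 28.3 to 43.0 in the adult pools and to 1004 to 1107 in the E15 pools.

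Of the 9 genes, 5 had enough reads for tests in the adult pools (B2m, H2-D1, H2-K1, Tap2 and Tapbp) and 4 in E15 brain (the same without Tap2). The allele tests asked for a mean of 20 or more reads, and the same genes passed the separate filter of the level tests. B2m lies on chromosome 2 and the other 8 on chromosome 17. In mm9, Tapbp spans chr17:34052844-34066235 (+), H2-K1 chr17:34132962-34137278 (-), Tap2 chr17:34340472-34353266 (+), H2-D1 chr17:35399675-35404444 (+) and B2m chr2:121973422-121978819 (+). Zbtb22 overlaps Tapbp, Patl2 overlaps B2m on the other strand, and Gm15821 and Gm20496 overlap Tap2, so reads in shared stretches cannot be assigned to 1 gene with certainty.

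The sequences that carry the results below are windows of the reference genome, mm9, around informative bases, read 5′ to 3′ along the transcript, with the informative bases in capitals as the B6 strain has them. Positions are counted from 0 at the first base of the transcript, and a substitution gives the B6 base, the position and the CAST base. The first 3 windows lie in H2-K1 and H2-D1 and hold bases with no near copy found in protein-coding transcripts of other genes. They hold T81C and C90T in coding exon 1 of H2-K1 (chr17:34137177-34137210, minus strand), C388A in exon 3 of H2-D1 (chr17:35400788-35400828, plus strand) and C1308T in the 3′ UTR of H2-D1 (chr17:35404000-35404028, plus strand). Base 1308 is marked as a repeat in the E15 list of base calls, as are the Tapbp bases, for which no near copy was found either. The next 2 have near copies: G368A, C385T and A405C in exon 2 of H2-K1 (chr17:34136672-34136733, minus strand) and G682T in exon 4 of H2-D1 (chr17:35402751-35402791, plus strand). The last 3 are the B2m bases on which its results turn: C213A and C365T in coding exon 2 (chr2:121976683-121976723 and chr2:121976835-121976875) and C785A in the 3′ UTR (chr2:121978731-121978759), all on the plus strand.
H2-K1 bases 81 and 90: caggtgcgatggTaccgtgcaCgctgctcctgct
H2-D1 base 388: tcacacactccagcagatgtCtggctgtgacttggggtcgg
H2-D1 base 1308: gttcccttccatagCcaaccttgctgctc
H2-K1 bases 368, 385 and 405: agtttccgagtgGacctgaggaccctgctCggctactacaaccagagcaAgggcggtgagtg
H2-D1 base 682: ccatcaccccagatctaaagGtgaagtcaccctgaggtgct
B2m base 213: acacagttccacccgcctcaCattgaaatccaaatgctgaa
B2m base 365: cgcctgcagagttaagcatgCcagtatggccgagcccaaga
B2m base 785: gtctgtcactgtgcCcaatgcttagcaat

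The first comparison was between the CAST and the B6 chromosome within the same cells. Both classical heavy chain genes gave fewer CAST than B6 reads in every adult pool, while the light chain gene B2m and the loading genes Tap2 and Tapbp did not pass the test. CAST reads were 3.94-fold lower than B6 reads for H2-D1 and 2.36-fold lower for H2-K1. In total 2 of 5 tested genes were called, both with fewer CAST reads, against 36% of 11625 genes called in either direction and 23.8% called with fewer CAST reads.

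H2-D1 encodes a classical heavy chain expressed on nearly all nucleated cells. Its CAST share in POA was 20% in the F1i male, 22.9% in the F1i female, 29.2% in the F1r male and 21.7% in the F1r female pool. In mPFC it was 14.5%, 16.8%, 20% and 18.8% in the same order of pools. All 8 values lay under 50%. In mPFC both F1r pools stood above both F1i pools, in POA the crosses overlapped, and the regions met at 20%. The mean was 23.5% ± 4.02 in POA and 17.5% ± 2.40 in mPFC (SD, n = 4 each). The log2 CAST to B6 ratio averaged over regions and crosses was -1.98 ± 0.09 (SE; adjusted p = 7.09e-06, edgeR's quasi-likelihood test, Benjamini-Hochberg over all genes). In E15 brain the CAST share was 28.3% in F1i (15 of 53 reads) and 23.3% in F1r (7 of 30 reads), with exact binomial 95% intervals of 16.8 to 42.3% and 9.93 to 42.3%. Both E15 pools passed the exact binomial test against equal shares, with adjusted p = 0.00743 and 0.0194, where 13.3% of 14675 genes were called in that direction and 20.2% in either. Summed over both E15 pools, base 522 gave 8 CAST and 36 B6 reads and base 388 gave 7 and 22. Bases 1308 and 1355 went the other way, with 4 and 3 and with 3 and 0 reads. Base 522, the deepest, has near copies in other class I genes, and with it alone the call was not kept.

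H2-K1 encodes the other classical heavy chain of this haplotype. Its CAST share in POA was 33.6% in the F1i male, 26.2% in the F1i female, 30.8% in the F1r male and 25.6% in the F1r female pool. In mPFC it was 26.5%, 29.6%, 28.8% and 37.5% in the same order. The pools of both regions and both crosses overlapped, and all 8 were under 50%. The means were 29.1% ± 3.81 in POA and 30.6% ± 4.78 in mPFC (SD, n = 4 each), with a log2 CAST to B6 ratio of -1.24 ± 0.11 (SE; adjusted p = 9.48e-05, edgeR). In E15 brain the shares were 40.0% of 85 reads in F1i and 36.2% of 58 reads in F1r, which did not pass the exact binomial test (adjusted p = 0.166 and 0.119).

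B2m, the light chain shared by all class I molecules, gave near-equal reads of both chromosomes. Its CAST share in POA was 52.6%, 49.2%, 50.4% and 49.5% in the F1i male, F1i female, F1r male and F1r female pools. In mPFC it was 37.9%, 46.5%, 50.4% and 49.3%. The F1i male mPFC pool was the lowest of the 8, with an exact interval of 33.0 to 43.0%, and the other 7 lay between 46.5 and 52.6%. The log2 ratio was -0.10 ± 0.07 (SE; adjusted p = 0.309, edgeR). E15 brain had 47.4% in F1i and 45.7% in F1r, with adjusted p = 0.269 and 0.0475 in the exact binomial test. The F1r pool alone passed, and a call needed both pools, so B2m was not called.

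The loading genes lay on either side of equality. Tapbp had CAST shares of 44.6%, 52.0%, 49.3% and 53.1% in POA and of 65.9%, 54.1%, 51.3% and 57.5% in mPFC, in the order F1i male, F1i female, F1r male, F1r female. All 4 mPFC values exceeded 50%, and the F1i male pool held both the highest mPFC and the lowest POA value. The log2 ratio of Tapbp was 0.21 ± 0.11 (SE; adjusted p = 0.166, edgeR), and its E15 shares were 52.8% and 57.5%. Tap2 had 45.9%, 43.6%, 40.0% and 54.9% in POA and 41.7%, 40.0%, 46.2% and 40.0% in mPFC, from 232 and 60 reads in all, with a log2 ratio of -0.33 ± 0.22 (SE; adjusted p = 0.240, edgeR).

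**Figure D1:**
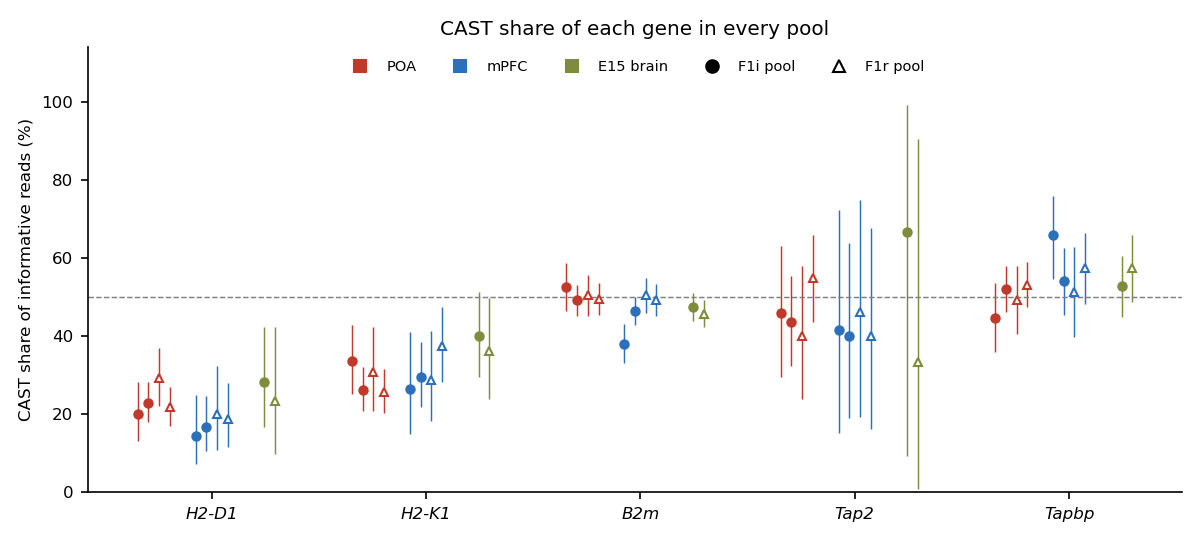
CAST share of informative reads (y axis, percent) of the 5 genes tested in adults, for every pool of POA (red), mPFC (blue) and E15 brain (green), F1i as filled circles and F1r as open triangles; bars are exact binomial 95% intervals, which cover counting error only, and the dashed line marks 50%. H2-D1 (14.5 to 29.2%) and H2-K1 (25.6 to 40.0%) lie under the line in every pool, while B2m, Tap2 and Tapbp have pools on both sides of it.

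Regions did not differ past the threshold for any of the 5 genes in the test of the difference itself, where 5.02% of 11625 genes were called. The largest POA minus mPFC difference in log2 CAST to B6 ratio was that of H2-D1, 0.52 ± 0.24 (SE; adjusted p = 0.186, edgeR), followed by Tapbp at -0.41 ± 0.21 (adjusted p = 0.320). With these errors, regional differences of that size could be neither shown nor dismissed.

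In H2-D1, H2-K1 and B2m the CAST share differed between bases of the gene. In H2-D1, all 4 bases listed in both adult regions were called with fewer CAST reads when fitted alone, with log2 ratios of -2.05 ± 0.30 (base 388), -1.60 ± 0.22 (base 682), -2.67 ± 0.27 (base 1019) and -2.48 ± 0.35 (base 1198; edgeR, adjusted p at most 0.00112). In mPFC 6 of 6 listed bases were under 50%, from 7.14 to 31.0%. In POA 7 of 11 were under 50%, and 4 went the other way. Of these 4, base 1308 in the 3′ UTR had 42 CAST and 2 B6 reads, bases 540 and 547 in exon 3 had 14 and 12 CAST reads and 0 B6 reads, and base 522 had 12 and 10. Bases 522, 540 and 547 lie within the length of a read, so they can count the same reads. Bases 540 and 547 have no base change in the lists of base calls.

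In H2-K1, 5 of 7 shared bases were called alone. The exon 1 bases had log2 ratios of -1.60 ± 0.45 (base 81) and -1.78 ± 0.37 (base 90), and the others called were bases 385 (-1.34), 405 (-1.65) and 650 (-1.12). Base 368 had -0.04 ± 0.24 and base 502 had -0.40 ± 0.29, with adjusted p = 0.925 and 0.327. Bases 368 and 385 stand 17 bases apart in the window printed above, and a read of 36 bases can cover both. Summed over POA pools, base 368 had 31 CAST and 34 B6 reads, against 30 and 59 for base 385.

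B2m looked balanced as a gene while its bases moved in opposite directions. Base 213 in exon 2 had more CAST reads, with log2 0.56 ± 0.12 (adjusted p = 0.00682), and bases 365 (-0.24 ± 0.07, adjusted p = 0.0272) and 785 (-0.44 ± 0.09, adjusted p = 0.00565) had fewer. Bases 494 and 499 in the 3′ UTR had 0.39 and 0.49 (adjusted p = 0.157 and 0.0777; edgeR, all adjusted over all genes). In E15 brain base 213 likewise had more CAST reads, 75 against 40 B6 reads, and base 365 fewer, 164 against 248.

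**Figure D2:**
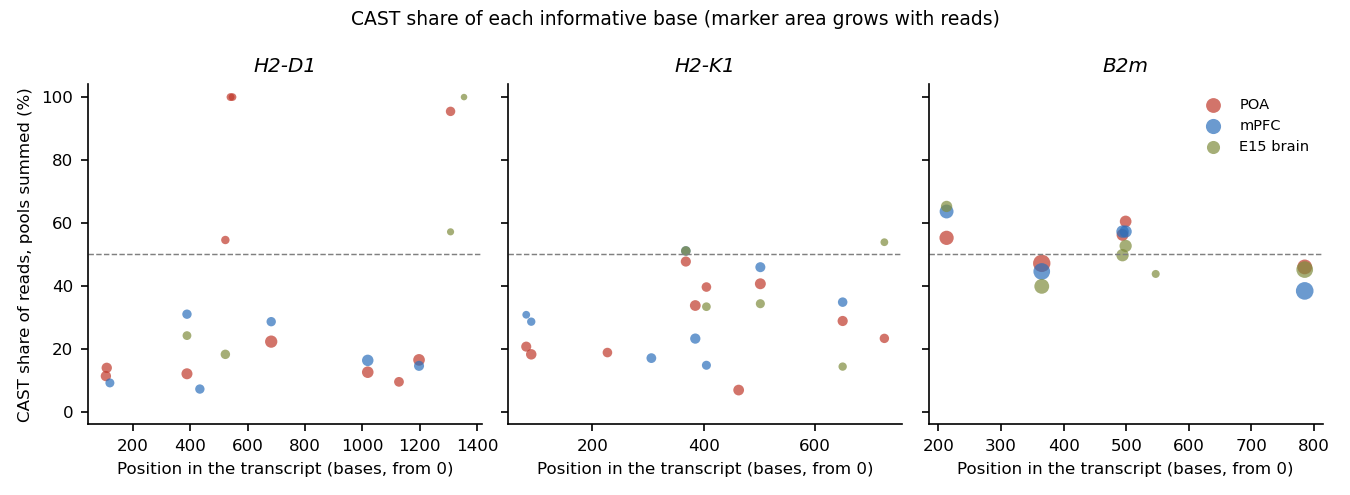
CAST share of reads (y axis, percent, pools of a region summed) at each informative base of H2-D1, H2-K1 and B2m against position in the transcript (x axis, bases from 0), POA red, mPFC blue, E15 brain green; marker area grows with the number of reads and the dashed line marks 50%. H2-D1 bases run from 7.14% to 100%, H2-K1 bases from 6.82% to 53.8%, and B2m bases from 38.4% to 65.2%.

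There are 3 measurements that bear on how far these shares can be set by mapping, since reads were aligned to the B6 reference. The first is the density of informative bases, because a CAST read over several of them carries several mismatches. Over all genes the median CAST share of a base was 49.5% in POA, 48.6% in mPFC and 48.2% in E15 brain where no other informative base lay within 35 bases, and 37.4%, 36.8% and 37.9% where 5 or more did. Weighted by reads, H2-D1 had 0.465 such neighbours per base in POA, 0.192 in mPFC and 1.06 in E15 brain, at percentiles 59.9, 38.7 and 90.9 of all genes. H2-K1 had 0.631, 0.735 and 0.517, at percentiles 71.8, 77.6 and 66.0, so both were above the middle of all genes except H2-D1 in mPFC. The CAST share of H2-D1 was at percentile 0.243 of 11519 genes in POA, 0.118 of 11044 in mPFC and 0.655 of 14206 in E15 brain, and that of H2-K1 at percentile 0.590, 2.00 and 7.86. Base 388 of H2-D1, which has no neighbour, had a CAST share of 12% in POA and 31.0% in mPFC. Tapbp had 0 neighbours at each of its 6 bases, and Tap2 had 1.18 in POA, at percentile 93.2, with a CAST share of 47.4%. Neighbours were counted among listed bases alone, so a low count does not show that the strains differ little in that stretch. The part of mapping in the shares of H2-D1 and H2-K1 was not tested.

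**Figure D3:**
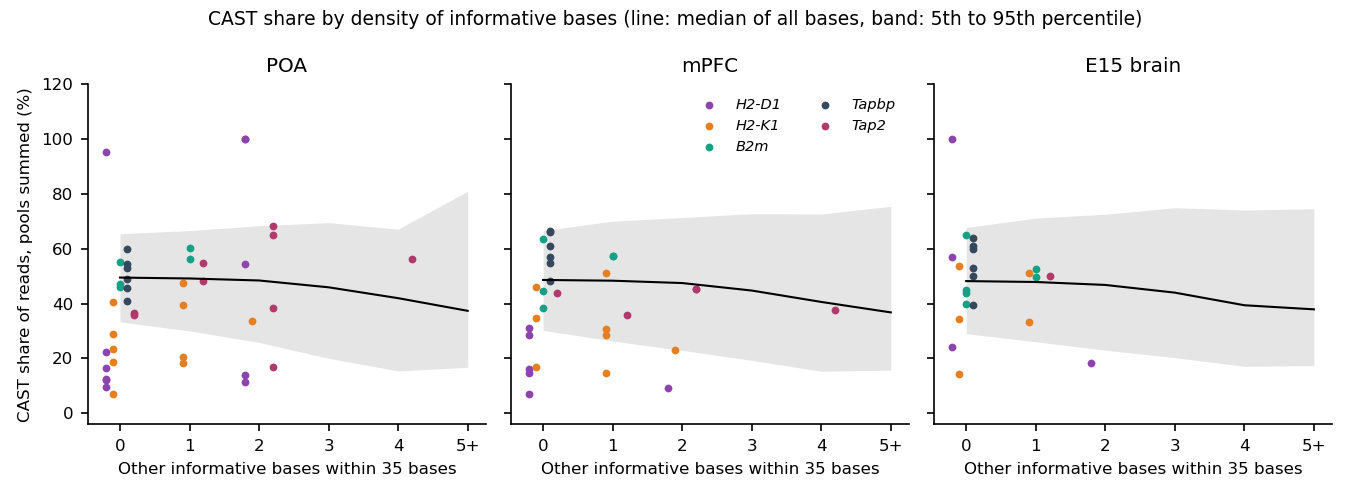
CAST share of reads at a base (y axis, percent, pools summed) against the number of other informative bases within 35 bases (x axis), for POA, mPFC and E15 brain; the line is the median and the band the 5th to 95th percentile of all bases, and dots are bases of the named genes. The median falls to 37.4%, 36.8% and 37.9% at 5 or more neighbours, and most H2-D1 and H2-K1 dots with 0 to 2 neighbours lie under the median line. Only listed bases count as neighbours.

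The second is sequence shared with other class I genes. It was searched in protein-coding transcripts of the reference, and a CAST version differs from B6 at 1 informative base alone. Other informative bases in the stretch were left as in B6, so where bases lie close the CAST versions are not the full CAST sequence. Of the 36-base stretches that cover an informative base of H2-D1, 32.6% of the CAST versions and 40.2% of the B6 versions match the transcript of another gene with at most 1 mismatch, and 3.54% and 19.2% match one exactly. For H2-K1 these were 28.8% and 31.3% within 1 mismatch, and 8.59% and 1.77% exactly. For B2m, Tap2 and Tapbp none did, over 5, 3 and 6 bases. The genes matched included H2-Q4, H2-Q6, H2-Q7, H2-Q10, H2-Bl, H2-T23 and Gm8909, and H2-D1 and H2-K1 matched each other at some bases. Reads of the classical heavy chain genes are therefore uncertain at 9 of the 11 bases checked in each, and the part of such copies in the shares was not tested. At the bases with no such match, H2-D1 had 54 CAST and 90 B6 reads in POA (37.5%, bases 388 and 1308) and 13 and 29 in mPFC (31.0%, base 388). H2-K1 had 27 CAST and 113 B6 reads in POA (19.3%, bases 81 and 90) and 10 and 24 in mPFC (29.4%). A read can cover both of these H2-K1 bases and is then counted at each. All 4 shares were under 50%, although H2-D1 in POA joins a base at 12% with one at 95.5%. The latter, base 1308, is marked as a repeat in the E15 list of base calls. All 6 Tapbp bases carry the same mark, as do the H2-K1 bases listed in E15 brain that have an entry. The mark thus does not single out base 1308, and base 388 has no entry in that list. The search may have missed copies at any of the marked bases, which was not tested.

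The third is the authors' second alignment, of the same reads to the genome instead of transcripts. There H2-D1 had a mean CAST share of 16.9% ± 4.49 in POA and 14.8% ± 11.1 in mPFC (SD, n = 4 each). H2-K1 had 44.6% ± 9.15 in POA and 33.3% ± 7.01 in mPFC, so its POA mean stood above the 29.1% of the transcript alignment, and its highest pool reached 56.5%. Tapbp in mPFC had 48.6% ± 4.59, against 57.2% ± 6.32 in transcripts. The genome alignment lists other and mostly fewer bases of these genes, 4 in POA and 3 in mPFC for H2-D1 against 11 and 6 in transcripts, and 5 in POA for H2-K1 against 10. In POA both means moved between the alignments by more than the SD between pools, that of H2-D1 to a lower and that of H2-K1 to a higher CAST share, and the part of the differing bases in this was not tested.

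Reads of the embryonic brains of the pure strains are given with the list of base calls. A base is on that list because the strains were called as differing there. Few reads with the other strain's base therefore cannot serve as a check of the calls. At the B2m bases the CastEiJ brain had 0 of 189 reads with the B6 base, and the C57BL/6J brain had 1 of 263 reads with the CAST base. Tapbp had 1 of 58 such reads in the CastEiJ brain and 0 of 61 in the C57BL/6J brain. H2-D1 had 3 reads in CastEiJ and 24 in C57BL/6J, and H2-K1 had 20 and 29, none with the other strain's base. There was 1 library set per strain, 9223521 CastEiJ and 10865825 C57BL/6J reads in the listed bases, so no test was made.

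The second comparison asked whether the chromosome's parent mattered, which the exchange of strains between mothers and fathers separates from strain. None of the 5 genes was called in adults, where 0.404% of 11625 genes were, nor any of 4 in E15 brain, where 13.7% of 14675 genes were by Fisher's exact test on counting error. H2-D1 reads were 20% and 22.9% maternal in the F1i POA pools, where the mother was CAST, and 70.8% and 78.3% maternal in the F1r POA pools, where she was B6. The maternal share thus followed the strain of the mother. The test set the CAST to B6 ratio in F1i over that in F1r, so a log2 value under 0 means a smaller maternal share. Because it spans both crosses, its size exceeds that of the mean log2 ratio of mother over father. The values were -0.31 ± 0.28 for H2-D1 and -0.20 ± 0.15 for B2m (SE), -0.21 for Tap2, -0.09 for H2-K1 and 0.05 for Tapbp (edgeR, adjusted p from 0.915 to 1).

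Sex entered the same test as a difference in parental bias between males and females. None of the 5 genes passed, and none of 11285 autosomal genes did (0% called), with 494 of them at an unadjusted p under 0.05 and 0 called by DESeq2. The differences in log2 ratio, male minus female, ran from -0.69 ± 0.44 for H2-D1 to 0.68 ± 0.80 for Tap2 (SE).

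The third comparison was of total level, the informative reads of both chromosomes, over bases listed in both adult regions. All 5 tested genes differed between POA and mPFC. The heavy chains H2-D1 and H2-K1 and the loading genes Tap2 and Tapbp were higher in POA. B2m was lower, in a call that rested on its base 785. These calls stood against 26.3% of 12249 genes called higher and 28.5% called lower in POA, 54.8% in all. The median log2 difference was 0.81 over the 5 genes and -0.01 over all genes. Levels are RPM after TMM scaling, a normalisation by the bulk of genes. In bulk tissue, a larger number of expressing cells and more RNA per cell cannot be told apart.

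Tapbp had 34.5, 38.7, 31.7 and 36.9 RPM in the F1i male, F1i female, F1r male and F1r female POA pools, against 18.3, 19.7, 17 and 21.7 in mPFC. H2-D1 had 19.9, 23.9, 21.0 and 22.5 in POA, against 11.8, 13.0, 10.9 and 13.9 in mPFC. Tap2 had 6.90, 6.93, 5.83 and 7.55 in POA, against 2.68, 2.92, 2.83 and 2.71 in mPFC. For each of these 3 genes the lowest POA pool stood above the highest mPFC pool. The share of all genes whose pools separate in this way was not counted, here or in the comparisons of level below. The log2 differences were 0.88 ± 0.13 for Tapbp (adjusted p = 8.83e-05), 0.81 ± 0.14 for H2-D1 (adjusted p = 0.000429) and 1.29 ± 0.22 for Tap2 (adjusted p = 0.000334; SE, edgeR).

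H2-K1 overlapped between regions. Its 4 POA pools had 25.7, 22.4, 13.5 and 21.7 RPM, against 8.92, 14.6, 13.3 and 16.3 in mPFC, in the same order. The F1r male POA pool fell among the mPFC pools, and the F1i male pools lay farthest apart. The log2 difference was 0.63 ± 0.21 (SE; adjusted p = 0.0215, edgeR), with an adjusted p of 0.101 without the F1i male POA pool, 0.0575 without the F1r female POA pool, 0.0686 without the F1i male mPFC pool and 0.0652 without the F1i female mPFC pool. The bases that carried it were the exon 1 bases with no near copy found, base 81 at 2.13 ± 0.45 and base 90 at 1.75 ± 0.43. The other 5 shared bases had 0.16 to 0.47 and did not pass alone, and without base 81 or base 90 the adjusted p of the gene was 0.0501 and 0.0523.

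B2m had 72.7, 83.7, 82.4 and 73.3 RPM in POA, against 84.0, 112.2, 105 and 110 in mPFC. The highest POA pool stood just under the lowest mPFC pool, and the log2 difference was -0.40 ± 0.12 (SE; adjusted p = 0.0109, edgeR), or -0.31 without the F1r female POA pool (adjusted p = 0.0696). Of its 3 informative 3′ UTR bases, 785 carried it. Base 785 had 18.4 ± 1.81 RPM in POA and 36.9 ± 5.40 in mPFC (SD, n = 4 each, unscaled), a log2 difference of -1.24 ± 0.15 (adjusted p = 2.2e-05). The other 3′ UTR bases, 494 and 499, had -0.50 ± 0.33 and -0.48 ± 0.34, and the coding bases 213 and 365 had 0.05 ± 0.20 and 0.13 ± 0.14, and none of these 4 passed. Without base 785 the gene's difference was -0.03 ± 0.15 (adjusted p = 0.881), so the gene's call rested on that base.

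A 3′ end base also stood apart in Tapbp. Its last base, 2708 in the 3′ UTR, had a log2 difference of -0.48 ± 0.24 (adjusted p = 0.104), while the other 5 bases had 0.85 to 2.11 and all passed alone. In H2-D1, bases 388, 682 and 1198 had 1.08 ± 0.29, 1.79 ± 0.25 and 0.98 ± 0.26, and base 1019 had -0.11 ± 0.26 (adjusted p = 0.741). Reads per base thus fell unevenly along these transcripts in the regions, and the cause was not tested.

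**Figure D4:**
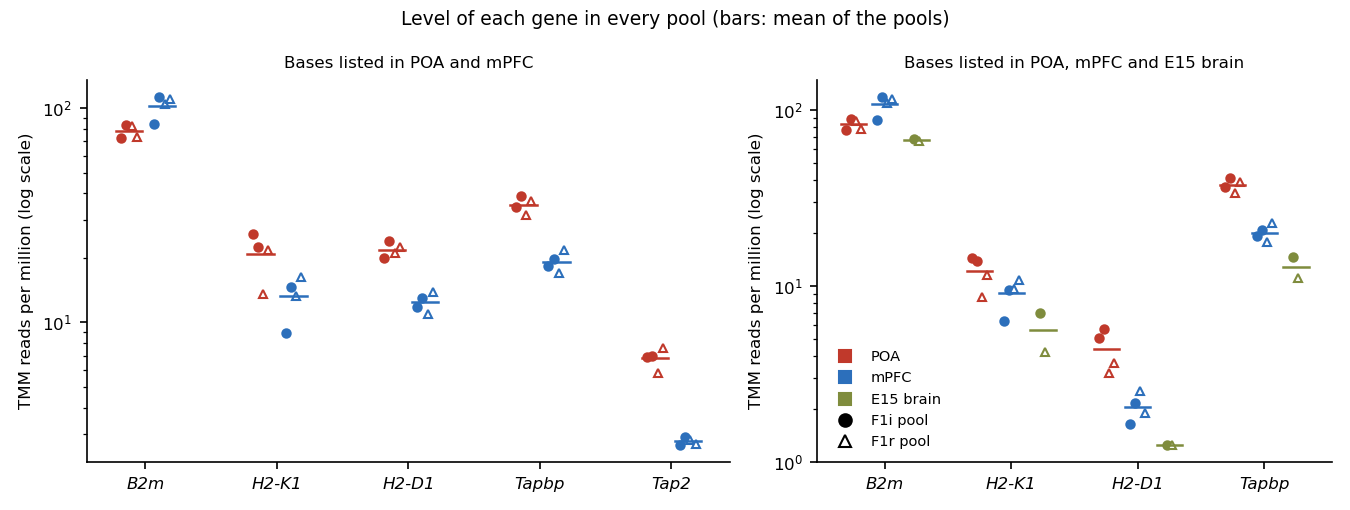
Level in TMM-scaled RPM (y axis, log scale) in every pool, F1i as filled circles and F1r as open triangles, with a bar at the mean of the pools of POA (red), mPFC (blue) and E15 brain (green). The left panel uses bases listed in POA and mPFC, where H2-D1, Tapbp and Tap2 separate with POA higher, and the right panel uses bases listed in all 3 tables, where E15 pools are lowest for B2m, H2-D1 and Tapbp.

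The fourth comparison set the adult regions against E15 brain, over bases listed in all 3 tables. All 4 tested genes were higher in adult brain, where 30.3% of 12152 genes were called higher and 63.4% were called in either direction. The median log2 difference was 1.02 over the 4 genes and -0.04 over all genes.

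B2m had 82.8 ± 6.12 RPM in POA and 108 ± 13.6 in mPFC (SD, n = 4 each), against 68.5 and 66.9 in the F1i and F1r E15 pools. Tapbp had 37.6 ± 3.27 in POA and 20.1 ± 2.15 in mPFC, against 14.5 and 11.1 in E15 brain. H2-K1 had 12.1 ± 2.62 in POA and 9.06 ± 1.93 in mPFC, against 7.04 and 4.23 in E15 brain. Every adult pool exceeded both E15 pools for B2m and Tapbp, while the lowest mPFC pool of H2-K1, at 6.31, fell between its E15 pools. H2-D1 shared only base 388 between the 3 tables, where the POA pools had 3.21 to 5.70 and the mPFC pools 1.64 to 2.51, against 1.25 and 1.24 in E15 brain, again with no overlap.

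On the log2 scale Tapbp rose by 1.11 ± 0.18 (adjusted p = 7.31e-05), H2-D1 by 1.26 ± 0.33 (adjusted p = 0.00337), H2-K1 by 0.92 ± 0.27 (adjusted p = 0.00846) and B2m by 0.48 ± 0.14 in adult brain (adjusted p = 0.00848; SE, edgeR). Without the F1r E15 pool, which leaves 1 embryonic pool, H2-K1 had 0.62 (adjusted p = 0.122) and B2m 0.44 (adjusted p = 0.0579). When all bases listed in each table were counted, H2-D1 rose by 2.90 and H2-K1 by 1.97, but those sums compare different bases. In B2m the coding bases 213 and 365 rose by 1.62 ± 0.26 and 1.0 ± 0.18 when fitted alone (adjusted p at most 0.000221). The 3′ UTR bases 494, 499 and 785 had 0.16, 0.11 and -0.09 and did not pass, and without base 365 the gene had 0.23 (adjusted p = 0.194). In Tapbp 5 of 6 bases passed alone, with 0.94 to 1.57, and in H2-K1 bases 502 (1.23) and 650 (1.49) did while bases 368 (0.38) and 405 (0.73) did not.

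**Figure D5:**
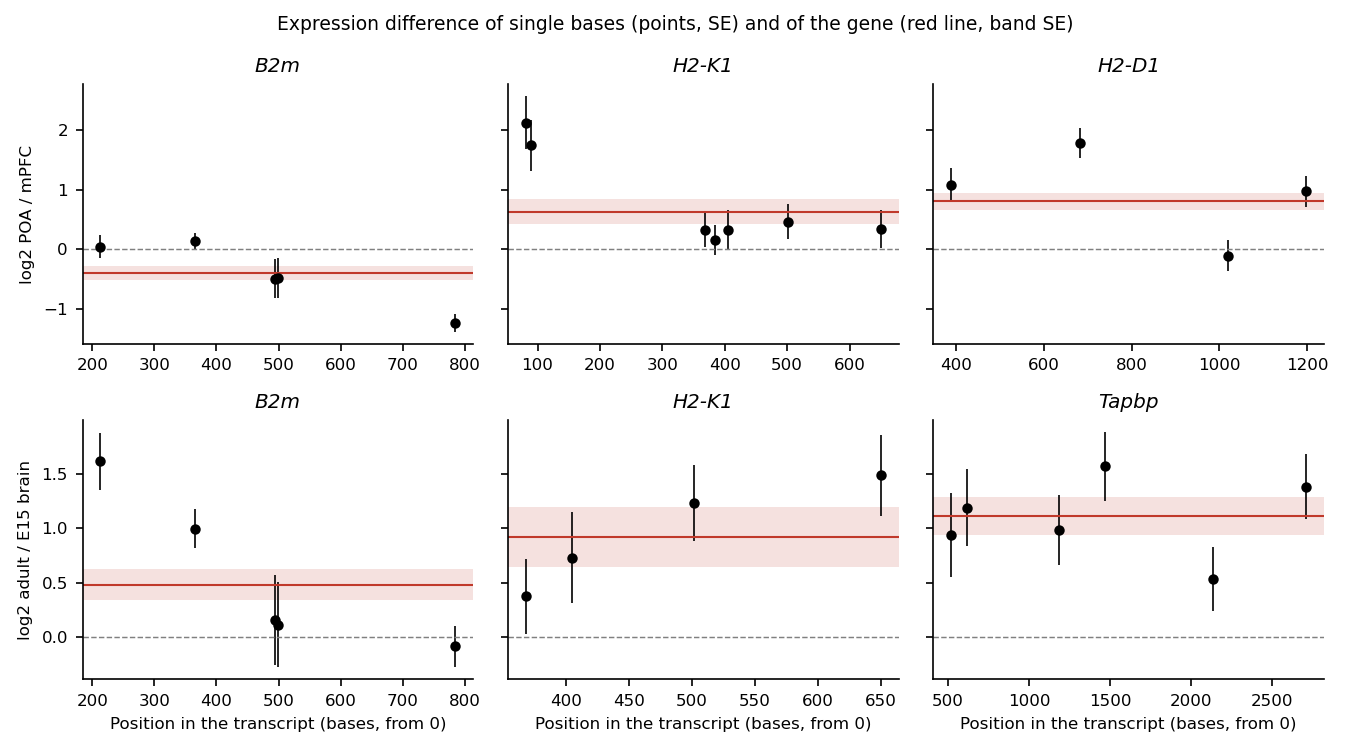
Log2 difference in level (y axis) of single bases, with SE bars, against position in the transcript (x axis, bases from 0), for POA over mPFC in the upper row and adult over E15 brain in the lower row; the red line and band are the gene's value and SE. The B2m base at 785 stands at -1.24 while its coding bases stand near 0 in the upper row, and the coding bases of B2m stand at 1.62 and 1.0 above its 3′ UTR bases in the lower row.

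Cell type markers also differed between the tissues, some in the direction of these levels and some not. Microglial genes were lower in POA, as the summed level of B2m was, while H2-D1, H2-K1, Tap2 and Tapbp were higher there. The B2m difference rested on its base 785, and its coding bases did not differ past the threshold. Of 12 microglial genes 8 had bases listed in all tables (Aif1, Cd68, P2ry12 and Ptprc had none), and their summed level was 280 to 323 RPM in POA, 441 to 530 in mPFC and 120 to 155 in E15 brain, with none at 0. Single microglial genes were called lower in POA for 5 of 8, from -0.50 for C1qb to -0.69 for Csf1r (log2), and higher for none, where 28.5% of all genes were called lower, and 8 of 8 were called higher in adult than in E15 brain, where 30.3% of all genes were. The 10 endothelial genes summed to 142 to 150 in POA, 99.4 to 160 in mPFC and 208 to 281 in E15 brain, where the tested members were lower than in adult brain. The 4 astrocyte genes summed to 990 to 1103 in POA, 748 to 798 in mPFC and 488 to 541 in E15 brain. The 4 oligodendrocyte genes with listed bases, of 5, summed to 7487 to 7965 in POA, 1489 to 4614 in mPFC and 117 to 120 in E15 brain. None of 4 T and natural killer cell genes and none of 4 choroid plexus genes had bases listed in all tables. The part of cell composition in the differences was not tested.

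Upstream sequence is shown for the 3 tested genes that encode class I chains, H2-D1, H2-K1 and B2m. The windows are the 250 bases before the annotated start in RefSeq's GRCm38.p6, which held 8 of the 9 genes (Tap2 had no entry): B2m at chr2:122147437-122147686, H2-D1 at chr17:35262844-35263093 (both plus strand) and H2-K1 at chr17:34000348-34000597 (minus strand). Capitals mark the interferon regulatory factor motif AANNGAAA and the kappa B motif GGGATTCCC, searched on both strands, which do not overlap each other in these windows. The first was in 4 of 8 genes (B2m, H2-D1, H2-K1 and H2-T23) and in 21.6% of 27025 promoters, and the second in H2-D1 and H2-K1 and in 84 of 27025 promoters (0.311%). Of other motifs, CCAAT was in 7 of 8 genes and 34.5% of promoters, and the letters TGACG in 5 of 8 and 17.9%. The windows of Tap1 and Psmb9 are largely the same stretch read on opposite strands, so both of these counts hold that stretch 2 times. The motifs were given to the search rather than found by it, and each was looked for as a single pattern. Other forms of a kappa B site, in B2m or elsewhere, were not counted. The counts are therefore no test of a difference between B2m and the heavy chain genes. A match in such a window says nothing of binding in these tissues.
B2m promoter: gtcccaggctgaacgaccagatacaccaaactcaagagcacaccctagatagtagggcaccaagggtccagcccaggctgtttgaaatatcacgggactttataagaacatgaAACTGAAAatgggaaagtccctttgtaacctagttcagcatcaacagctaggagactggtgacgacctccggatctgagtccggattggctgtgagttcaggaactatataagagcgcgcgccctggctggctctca
H2-D1 promoter: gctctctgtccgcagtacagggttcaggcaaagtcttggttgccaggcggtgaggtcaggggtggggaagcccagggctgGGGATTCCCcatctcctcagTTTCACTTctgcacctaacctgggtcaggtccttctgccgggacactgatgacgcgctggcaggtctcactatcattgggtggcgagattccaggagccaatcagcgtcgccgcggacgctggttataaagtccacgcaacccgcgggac
H2-K1 promoter: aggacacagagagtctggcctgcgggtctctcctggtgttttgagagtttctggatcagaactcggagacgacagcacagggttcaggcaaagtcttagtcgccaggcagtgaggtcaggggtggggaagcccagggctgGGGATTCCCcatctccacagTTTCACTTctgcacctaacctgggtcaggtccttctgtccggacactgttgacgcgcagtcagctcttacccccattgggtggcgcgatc

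Cross and sex did not move the total level of any tested gene past the threshold. For F1i over F1r the log2 differences ran from -0.07 for B2m to 0.09 for H2-K1, where edgeR called 0 of 12249 genes (0%), with 603 at an unadjusted p under 0.05 and 1 called by DESeq2. For males over females all 5 genes were on the lower side, from -0.14 ± 0.12 for B2m to -0.32 ± 0.21 for H2-K1 (SE; adjusted p from 0.905 to 0.956, edgeR), where 0.0327% of 12249 genes were called.

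The remaining genes fell under the read filter of the gene tests. H2-T23, a nonclassical heavy chain gene whose product is read by natural killer cell receptors, had 9 CAST and 0 B6 reads in the F1i and 5 and 0 in the F1r E15 pool, a summed CAST share of 100% with an exact 95% interval of 76.8 to 100%. Its 3 bases have no entry in the tables of parental reads used here, so no reads of the pure strains can be set beside them. Tap1, the other transporter subunit, had 8 CAST and 0 B6 counts in the F1i mPFC pools and 4 and 7 in the F1r mPFC pools. These sum bases 1221 and 1224, which 1 read can cover, and each F1i pool had 2 CAST reads at either base. In E15 brain 16 of 27 counts were CAST. Tap1 and Psmb9 lie on opposite strands and overlap at their starts, so their reads there cannot be told apart.

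Psmb8 had 13 CAST reads of 30 in POA, 6 of 8 in mPFC and 5 of 8 in E15 brain. At its 1 base shared by both adult regions it had 0.609 to 1.33 RPM in POA, against 0.292 to 0.446 in mPFC, with no overlap and a log2 difference of 1.21 ± 0.57 that did not pass when the base was added to the fit (adjusted p = 0.0605, edgeR). Psmb9 had 13 CAST reads of 22 in POA and 4 of 13 in mPFC, and its level at the shared base overlapped between the regions, 0.365 to 1.06 RPM in POA against 0.362 to 0.892 in mPFC. Tap2 had 3 CAST reads of 6 in E15 brain. Besides a transcript with the same bases and counts as the main H2-K1 transcript, a further H2-K1 transcript was listed in E15 brain only. It was not placed on the genome here. This further transcript had 31 CAST and 9 B6 reads in F1i and 15 and 7 in F1r, opposite in direction to the main transcript. Its base 234 has the same counts in both pools as base 725 of the main transcript, so some reads may be counted in both. The transcript counts as uncertain because class I genes share sequence, and it was not itself searched for copies.

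The other genes of the pathway were counted against the 26.3% of all genes called higher and the 28.5% called lower in POA. Of 8 tested genes of peptide loading and trimming, 2 were higher in POA than in mPFC, the chaperones Canx (0.84 ± 0.11) and Hspa5 (0.38 ± 0.14), and none lower. Of 9 proteasome genes 3 were higher, Psmb6 (0.48), Psme1 (0.41) and Psmb5 (0.36), and 1 lower, Psma1 (-0.62). Of 4 other class I genes 1 was higher, H2-M3 (1.02 ± 0.31), and of 17 regulators 6 were higher and 8 lower, with Rfx5, a factor that binds class I and class II promoters, at 1.42 ± 0.16 and Jak2, Jak1 and Creb1 at -0.94, -1.0 and -1.07. In the class II list 0 of 4 were higher and 3 lower, H2-DMa (-1.15 ± 0.17), whose product helps load class II molecules, the lysosomal protease gene Ctss (-0.56 ± 0.13), and H2-Ke2 (-0.93 ± 0.17), which is encoded in the class II region but makes a prefoldin subunit. The 1 tested gene of the class I receptor list did not pass. Of 43 neighbours within the class I interval of chromosome 17, 10 were higher and 10 lower, led by Atp6v1g2 (-1.20), Ddr1 (1.42), H2-Ke6 (1.33) and Tcf19 (-1.99), with a median of 0.00 against -0.01 over all genes.

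In adult over E15 brain, where 30.3% of all genes were called higher and 33.1% lower, the lists were counted in the same way. H2-M3 rose by 2.2 ± 0.52 (1 of 4 class I genes), and Ctss (2.64 ± 0.21) and H2-DMa (1.67 ± 0.26) made 2 of 3 class II genes. Peptide loading had 0 of 7 higher and 2 lower, the translocon genes Sec61a1 (-0.96) and Sec61b (-0.80). Proteasome genes had 1 of 9 higher, Psmb5 (0.81), and 3 lower, Psma1 (-1.43), Psme2 (-0.97) and Psme1 (-0.56). Of 16 regulators 3 were higher and 6 lower, among them Jak2 (-2.0), Creb1 (-2.03), Ifnar1 (-1.34) and Ifngr2 (-0.98). The receptor chain Cd247 fell by 1.16, and of 40 neighbours 10 were higher and 12 lower, led by Zbtb12 (-3.59), Atp6v1g2 (2.63), Ddah2 (-2.54) and Clic1 (-2.04).

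For CAST over B6 reads in adults, where 12.2% of all genes were called with more and 23.8% with fewer CAST reads, 7 of 38 neighbours on chromosome 17 had more and 8 fewer, with a median of -0.01. Among them Cchcr1 (2.45) and Tcf19 (1.19) had more CAST reads and Rgl2 (-0.78) and H2-Ke2 (-0.51) fewer. H2-Q7, one of the genes that share sequence with H2-D1, had more CAST reads (0.88 ± 0.28, adjusted p = 0.0390), and Mr1 fewer (-0.78). The class II list had 2 with more, H2-Ab1 (1.85) and H2-DMa (0.47), and 2 with fewer of 4, of which 1 is H2-Ke2, the prefoldin gene already counted among the neighbours. Peptide loading had 2 of 8 with fewer, Tapbpl (-1.40 ± 0.22), a tapasin relative that edits peptides, and Calr (-0.30). Proteasome genes had 2 with more and 4 with fewer of 9, led by Psmb5 (0.36), Psme3 (-0.47), Psmb6 (-0.51) and Psme1 (-0.35). Regulators had 6 of 15 with fewer and none with more, led by the interferon gamma receptor chain Ifngr2 (-1.18 ± 0.06), Stat3 (-0.49), Ifnar1 (-0.36) and Rfxank (-0.30). Of 8 microglial genes 5 had fewer CAST reads and none more, from -0.42 for C1qc to -0.67 for Trem2, and whether this is shared with the heavy chains was not tested.

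Levels were compared between the members over the 8 adult pools. H2-D1 and Tapbp had a Pearson r of 0.99, Tap2 and Tapbp 0.97, H2-D1 and Tap2 0.96, and H2-K1 0.73 to 0.78 with these 3. B2m, summed over its bases with base 785 included, was negatively related to each of the other 4, from -0.42 with H2-K1 to -0.82 with Tap2. With the regional means removed, H2-D1 and Tapbp had 0.91, Tap2 and Tapbp 0.44, H2-D1 and Tap2 0.19, H2-D1 and H2-K1 0.33, and B2m and H2-D1 0.45. The 5 genes of 12244 whose level was most like the mean of the 5 members over the 8 pools were 4933433P14Rik (0.99), Rnf8 (0.99), Cited2 (0.99), Fads6 (0.99) and Ttyh2 (0.98). These correlations describe 8 pools that share region, depth and scaling.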

How the data were processed

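RNA was selected by polyA, copied with random hexamers and read for 36 cycles, per the labels' protocols, in 24 F1 libraries (10 pools) and 8 parental libraries. The authors deposited counts of reads with the CAST and the B6 base at each informative base, aligned to transcripts and separately to the genome, with technical replicates summed; Novoalign and mm9 are named in the submitters' processing notes. Counting without strand cannot separate overlapping genes. Listed bases have 1 or more reads in all pools of their region; genes with few reads are therefore listed by few bases.

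Reads were summed per gene over its transcript with most reads, with each base counted once, without the mitochondrial genome. Counts were tested with edgeR 4.0.16 under R 4.3.3 (quasi-likelihood, Benjamini-Hochberg over all genes tested, threshold 0.05). Allele tests took genes with a mean of 20 reads or more and used pool, allele and allele by cross and region terms. Level tests used TMM, bases shared between tables and edgeR's own read filter, filterByExpr. A log2 value for the parents sets the CAST to B6 ratio in F1i over that in F1r. E15 pools, 1 per cross, were tested by exact binomial and Fisher tests on counts, which cover counting error only. These tests and the exact intervals take each count as a separate read, although a read over near bases is counted at each. The SE of a fit was taken from its p. DESeq2 1.42.0, other filters, single bases and pools left out were alternatives. The steps were tested on simulated data.

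Members and gene lists were chosen with earlier results of these data known, and the single-base fits and the genome alignment were added after seeing the data. Named genes are all members, up to 4 called genes per list with the smallest adjusted p, and the 5 whose level was most like that of the members. Neighbours are genes of GENCODE placed between the outermost chromosome 17 members. The 8 columns of adult parental counts could not be tied to a region and were not used.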

Additional observations from a re-analysis of the deposited data

Results flagged for a closer look

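Of 45 groups of 4 pools compared, 6 held a pool whose gap to its nearest neighbour was large for the range of the group; chance gives about 1 in 20. H2-K1 had 19.1 RPM over all its POA bases in the F1r male pool, against 31.4 to 33.6 in the other 3 POA pools. Psmb8 had 1.67 in the F1i male POA pool, against 1.23 to 1.30 in the others. Psmb9 reads were 100% CAST, and so 0% maternal, in the F1r male POA pool, from 3 reads, where the CAST and maternal shares of the others ran from 50 to 57.1%. Tap1 reads were 55.6% maternal in the F1r female mPFC pool and 100% in the other 3, from 2 to 9 reads a pool. Tap2 reads were 60.0% maternal in the F1r male POA pool, against 43.6 to 45.9% in the others.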

How the results depend on the processing

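The strain calls of H2-D1 and H2-K1 in adults kept their side of the threshold with any 1 of the 8 pools left out, with log2 ratios of -2.04 to -1.91 for H2-D1 and -1.33 to -1.17 for H2-K1. Technical replicates were summed by the authors, so no replicate number pairs the pools. POA and mPFC pools match by cross and sex, but their deviations from the regional means correlated at only 0.029, 0.072, 0.067 and 0.209 (F1i male, F1i female, F1r female, F1r male), and the F1i male mPFC pool correlated better with the F1i female POA pool, at 0.081. With these matches as a replicate block, chosen after seeing the data, 6872 genes differed in level between regions, against 6718 without, and the POA minus mPFC strain difference had 1129 calls, against 583, with no member's call or sign changed. Depth limits Tap1, Tap2, Psmb8, Psmb9 and H2-T23 most, and shared class I sequence limits H2-D1 and H2-K1. Over the members' values, leaving out 1 base left call and sign as they were in 164 cases, lost 4 calls, gained 1 and turned 5 signs. Leaving out 1 pool did so in 294, lost 7 calls and turned 19 signs, and the other settings in 200, with 2 calls lost, 1 gained and 11 signs turned.

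Genome-wide counts of called genes moved more, and the cause was not tested. For the strain test in adults, 4187 genes became 2222 with the deepest base of each gene and 2550 with DESeq2. For the POA minus mPFC difference in strain bias, 583 became 889 with the deepest base, 301 with bases that have no other within 35 bases, 327 with DESeq2 and 1232 with autosomal genes alone, and 161 to 362 with 1 pool left out, every pool lowering it by over 1.5 times. For the parental test in adults, 47 became 78 with DESeq2 and 93 with autosomal genes alone. For its male minus female difference, 0 became 1 with the deepest base and 0 to 23 with 1 pool left out, the 23 without the F1r female mPFC pool. In E15 brain, 2004 parental calls became 1209 with the deepest base, 1155 with isolated bases and 53 in edgeR with the spread of the adult pools, and 2968 strain calls became 1706, 1825 and 1789 in the same order. For F1i over F1r levels, 0 became 1 with no read filter, with DESeq2 and with all bases of each table, 38 with B6 reads alone, and 0 to 1 with 1 pool left out. For male over female levels, 4 became 0 with B6 reads alone and 0 to 6 with 1 pool left out.

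Some member calls changed whose values are not given above. The strain ratio of B2m was -0.41 with its deepest base (adjusted p = 0.00344, edgeR), and that of Tapbp 0.42 without base 2708 (adjusted p = 0.0267, edgeR). That of H2-D1 in E15 brain was -2.10 with its deepest base (adjusted p = 0.276, exact test). The POA over mPFC level of H2-K1 was 0.67 in B6 reads alone (adjusted p = 0.0501, edgeR).

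Signs that turned were all of values called in neither setting. With the deepest base, log2 values were 0.23 for H2-K1 and -0.32 for Tapbp (parents, adults), 1.2 for H2-K1 and 0.67 for Tapbp (strain, POA minus mPFC), -0.37 for H2-D1 and -0.47 for H2-K1 (parents, E15), and 0.060 for H2-K1 (strain, E15). For parents in adults, H2-K1 had 0.20 with isolated bases and 0.075 without base 368, and Tapbp had -1.61e-05 with autosomal genes alone, -0.0022 without base 617 and -0.022 without base 2708. In B6 reads alone, F1i over F1r was 0.0033 for B2m and -0.0039 for Tapbp. B2m had a strain ratio of 0.077 without base 785, and H2-K1 a POA minus mPFC strain difference of 0.036 without base 463. With 1 pool left out, F1i over F1r ran from -0.16 to 0.026 for B2m, -0.029 to 0.038 for H2-D1, -0.16 to 0.22 for H2-K1 and -0.053 to 0.12 for Tap2. The parental ratio ran from -0.24 to 0.072 for H2-K1, -0.43 to 0.092 for Tap2 and -0.11 to 0.18 for Tapbp, and its male minus female difference from -0.62 to 0.18 for B2m, -0.26 to 0.78 for H2-K1 and -0.14 to 0.96 for Tapbp. The POA minus mPFC strain difference of H2-K1 ran from -0.29 to 0.025.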
